A study of Mus musculus with 20 samples.

Results

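The leukocyte tetraspanins described here are 10 genes, Cd9, Cd37, Cd53, Cd63, Cd81, Cd82, Cd151, Tspan3, Tspan4 and Tspan31. They were picked by symbol from a table of 24421 genes, all 10 were found, and all 10 had enough counts to be tested, as had 12465 genes in all. Their RNA was measured by bulk RNA-seq in bone marrow-derived dendritic cells (BMDC), which are cells grown here from wild-type C57BL/6 mouse marrow for 8 days with 40 ng/mL of the growth factor GM-CSF. Cells from 5 mice (A to E) were each split over 4 groups, so that every mouse gave 1 library to every group. DMSO Ova cells received the solvent, given in the labels as 5% DMSO, and soluble ovalbumin, and DMSO IC cells received the solvent and ovalbumin bound by rabbit antibody, an immune complex that engages Fc receptors. iBET Ova and iBET IC cells received 3.3 μM I-BET151, an inhibitor of the bromodomains of BET proteins, with ovalbumin or the complex. Per the methods the drug was diluted from a stock in DMSO, so these cells received some solvent too. Stimulation lasted 4 hours in all groups. The labels have drug and stimulus added together and the methods have the drug added first, the DMSO content of the iBET groups is not given in the sources used here, and the labels mention sorting but name no gate. Any difference in DMSO content between the iBET and DMSO groups cannot be told apart from the drug.

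Tetraspanins are small proteins that pass repeatedly through the membrane and hold other proteins, such as integrins, proteases, lectins and signalling receptors, in membrane microdomains. In dendritic cells they are known for organizing MHC class II and pattern-recognition receptors at the surface, for adhesion and migration, and for marking endosomes and the extracellular vesicles made from them. Some, such as Cd53 and Cd37, are found almost only on blood cells, and others, such as Cd9, Cd63, Cd81 and Cd151, are found on many cell types.

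Libraries held 16447491 to 29245150 counts, with a median of 21764663. The 6 dendritic cell markers checked (such as Itgax and H2-Ab1) summed to 4091 to 8270 CPM (counts scaled to a library of 1000000), and 5 macrophage or monocyte markers to 892 to 1927 CPM. Of the 6 dendritic cell markers, Cd74 and Itgax averaged 3221 and 2104 CPM over the 20 libraries, and Zbtb46 and Flt3 averaged 25.9 and 1.55 CPM. B cell and T cell markers were near 0, with sums of at most 0.726 and 0.848 CPM. Neutrophil markers summed to 11.7 to 48.3 CPM, eosinophil markers to 38.9 to 136 CPM, platelet markers to 37.0 to 111 CPM, mast cell or basophil markers to at most 2.98 CPM and erythroid markers to at most 6.51 CPM. Markers of other cell types were thus detected, with those of macrophages or monocytes at the highest sums among them. In bulk RNA fewer cells of a type cannot be told apart from less RNA per cell.

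The 10 genes covered a wide range of levels. Per kilobase of exon, in DMSO Ova cells, Cd53 was highest at 365 ± 111 CPM per kb (SD, n = 5), followed by Cd9 at 152 ± 38.1. Then came Cd63 at 53.9 ± 11.8 and Cd81 at 51.5 ± 2.95 CPM per kb, whose ranges overlapped. Tspan31 lay below them at 32.7 ± 3.41 CPM per kb, and Tspan3 below it at 21.2 ± 4.01. The remaining genes stood at 16.2 ± 5.06 (Cd151), 13.5 ± 1.76 (Cd82), 11.1 ± 1.84 (Cd37) and 7.75 ± 2.29 CPM per kb (Tspan4). From Tspan3 downwards, the range of each gene overlapped that of the next one. Cd53 stayed first, Cd9 second and Tspan4 last in all 4 groups. The order in the middle changed between groups: Cd81 was above Cd63 per kb in 3 of 5 mice with DMSO Ova and 0 of 5 with DMSO IC, and in 5 of 5 with iBET Ova and 4 of 5 with iBET IC. The lengths used merge the exons of all annotated transcripts of a gene, and the order in the middle depends on them. Before division by length, Cd63 (164 to 259 CPM) lay above Cd81 (141 to 162 CPM) in DMSO Ova cells without overlap. Tspan3 then had a higher mean than Tspan31, at 90.7 against 71.7 CPM.

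**Figure D1:**
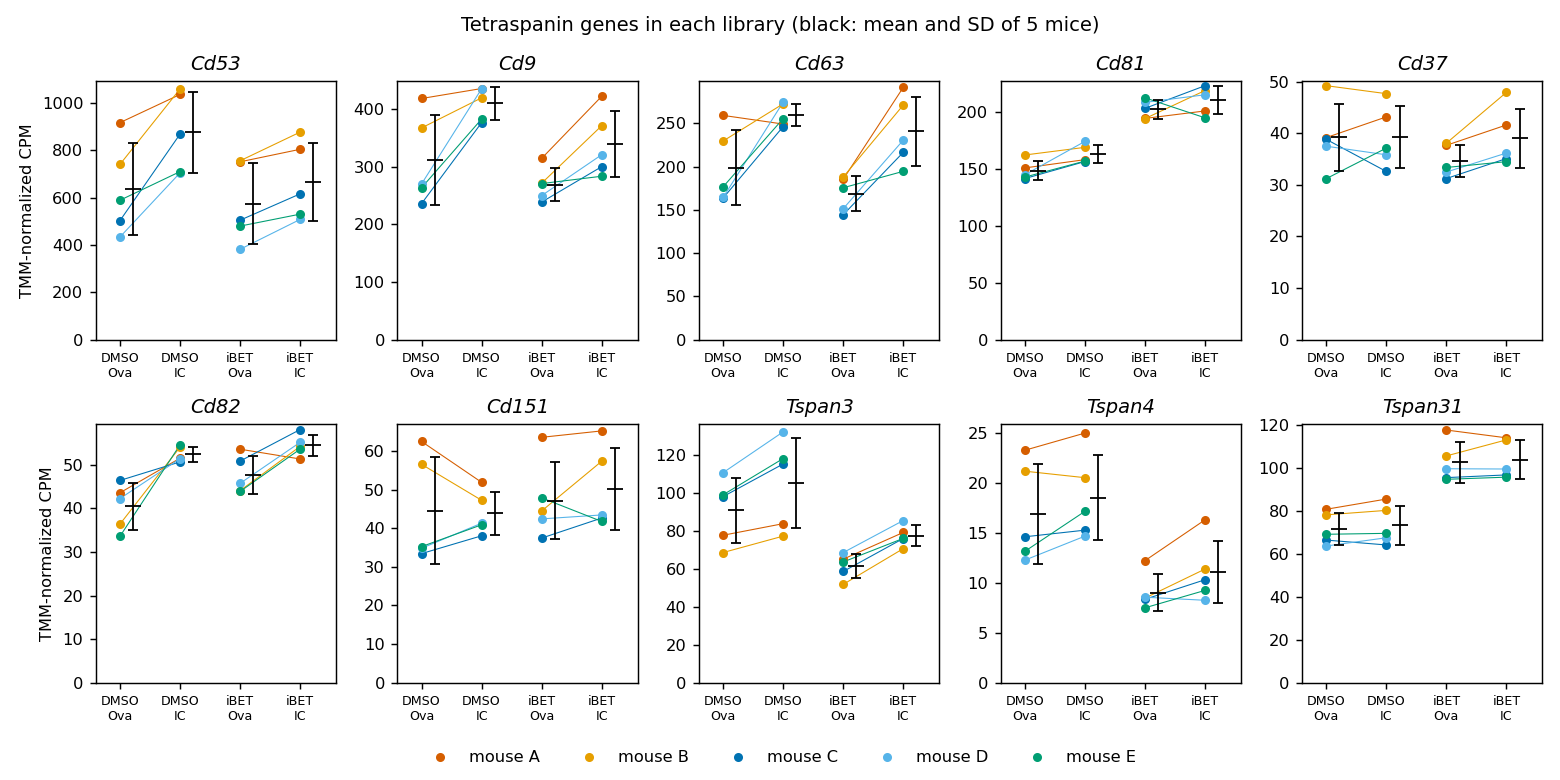
Level of each tetraspanin gene in every library, in TMM-normalized CPM on an axis that starts at 0. Coloured points are single mice, thin lines join the Ova and IC libraries of a mouse, and black marks give the mean and SD of 5 mice. For Cd81 and Tspan31 both iBET groups lie above both DMSO groups without overlap, and for Cd53 mice A and B lie above the others in every group.

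The first question was what BET inhibition did to these genes without Fc receptor engagement. With Ova, iBET raised Cd81, Tspan31 and Cd82 and lowered Tspan3 and Tspan4, so that 5 of the 10 genes changed at an adjusted p under 0.05 (edgeR quasi-likelihood test, Benjamini-Hochberg over all genes tested), 3 higher and 2 lower. This main fit had the 4 groups as the only factor and did not pair the libraries of each mouse. Over all genes tested, 56.6% changed in this comparison, with 27.7% higher and 28.9% lower, so the share among the tetraspanins was close to the background. The median log2 fold change of the 10 genes was −0.16, against −0.0029 for all genes. With IC, 4 of 10 changed, with Cd81 and Tspan31 higher and Tspan3 and Tspan4 lower, where the background was 56.1% (27.1% higher, 29% lower). Here the median of the 10 genes was −0.06, against −0.01 for all genes.

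Cd81, a widely expressed surface tetraspanin known from a co-receptor of B cells, rose in every mouse under both stimuli. In mice A to E it stood at 151, 162, 141, 145 and 143 CPM with DMSO Ova. With iBET Ova the values were 194, 194, 203, 208 and 212 CPM. Every iBET library lay above every DMSO library. The log2 fold change was 0.45 (SE 0.06, adjusted p = 1.04e-06), a 1.36-fold rise. With DMSO IC the mice stood at 158, 169, 156, 174 and 157 CPM. With iBET IC they stood at 201, 219, 223, 215 and 195 CPM. The groups again did not overlap, and the log2 fold change was 0.37 (SE 0.06, adjusted p = 1.1e-05).

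Tspan31, a tetraspanin first described as a gene co-amplified with Cdk4 in sarcomas, rose by a similar amount. With DMSO Ova, mice A to E had 80.9, 78.3, 66.5, 63.7 and 69.2 CPM. With iBET Ova they had 118, 106, 95.6, 99.7 and 94.8 CPM. No value was shared between the ranges, and the log2 fold change was 0.52 (SE 0.09, adjusted p = 6.75e-05), or 1.43-fold. In IC-treated cells it went from 85.6, 80.3, 64.2, 67.6 and 69.6 CPM with DMSO to 114, 113, 96.9, 99.6 and 95.8 CPM with iBET. These groups did not overlap either, with a log2 fold change of 0.50 (SE 0.09, adjusted p = 9.81e-05). In both groups of both stimuli mice A and B were the highest of the 5.

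Tspan4, a tetraspanin that builds the retraction-fibre organelles called migrasomes, had the largest change of the 10. Mice A to E had 23.3, 21.2, 14.6, 12.3 and 13.1 CPM with DMSO Ova and 12.2, 8.46, 8.34, 8.56 and 7.49 CPM with iBET Ova. All 5 mice were lower with iBET, and the highest iBET value, in mouse A, lay just under the lowest DMSO value. The log2 fold change was −0.90 (SE 0.21, adjusted p = 0.00122), a 1.87-fold fall. With IC the values were 24.97, 20.5, 15.3, 14.7 and 17.1 CPM with DMSO and 16.3, 11.4, 10.3, 8.25 and 9.23 CPM with iBET. The groups overlapped through mouse A, every mouse was lower, and the log2 fold change was −0.73 (SE 0.21, adjusted p = 0.00573).

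Tspan3, a widely expressed tetraspanin that myeloid leukaemia cells of mice depend on, also fell. With DMSO Ova it stood at 77.6, 68.5, 97.9, 110 and 98.8 CPM in mice A to E. With iBET Ova it stood at 65.0, 51.7, 58.5, 68.5 and 63.5 CPM. The groups nearly met, with the highest iBET value just under the lowest DMSO value, and the log2 fold change was −0.56 (SE 0.14, adjusted p = 0.00204). With IC it went from 83.7, 77.1, 115, 132 and 118 CPM to 79.0, 70.5, 75.9, 85.3 and 75.9 CPM. All 5 mice were lower with iBET but mice A and B only slightly, the groups overlapped, and the log2 fold change was −0.44 (SE 0.14, adjusted p = 0.0109). With mice A and B alone the IC value was −0.09 (adjusted p = 0.619) and with mice C, D and E alone −0.60 (adjusted p = 3.26e-05). This split of the mice was chosen with earlier results of these data known, so p-values within its sets are descriptive only. Mice A and B also give fewer libraries per group than mice C, D and E. Over all genes, 41.9% were called with mice A and B alone and 57.4% with mice C, D and E alone for iBET with IC. The call with IC was also lost without mouse C (adjusted p = 0.0694) or mouse E (adjusted p = 0.0674), and with mice A and B alone the Ova value was −0.33 (adjusted p = 0.0635).

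Cd82, a tetraspanin known as a metastasis suppressor that also associates with MHC class II and the lectin Dectin-1, rose with iBET when the stimulus was Ova. Its values were 43.6, 36.4, 46.4, 42.3 and 33.6 CPM with DMSO and 53.6, 44.1, 50.9, 45.8 and 43.9 CPM with iBET. All 5 mice were higher but the ranges overlapped, and the log2 fold change was 0.23 (SE 0.08, adjusted p = 0.0154). With IC the difference was 0.05 (SE 0.08, adjusted p = 0.571), with groups at 52.5 ± 1.74 and 54.5 ± 2.46 CPM (SD, n = 5). Its call with Ova was lost when only library size was used for scaling (adjusted p = 0.0562) or when only the groups compared were fitted (0.0581). It was also lost with mice A and B alone, which give fewer libraries per group (log2 fold change 0.28, adjusted p = 0.0971).

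The other 5 genes did not pass the test with either stimulus in this fit without pairing. Their log2 fold changes with Ova and IC were −0.21 and −0.27 for Cd9, −0.23 and −0.11 for Cd63, −0.15 and −0.39 for Cd53, −0.18 and −0.01 for Cd37, and 0.09 and 0.19 for Cd151. Fitting the mouse as a block gave 8 calls of 10 with Ova (background 68.7%), adding lower Cd9 (adjusted p = 0.0448, lower in 3 of 5 mice), Cd37 (0.0199, 4 of 5) and Cd63 (0.0321, 5 of 5). DESeq2 with the same block did not call Cd9 with Ova. With IC the block gave 6 calls (background 68%), adding lower Cd9 (adjusted p = 0.00345) and Cd53 (0.000115). The block put Tspan3 at an adjusted p of 1.26e-05 with Ova and 0.000208 with IC.

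The macrophage or monocyte marker sum was also lower with iBET, with medians of 1442 CPM (range 1271 to 1791) against 949 CPM (892 to 1249) with Ova, and of 1479 CPM (1370 to 1927) against 1103 CPM (940 to 1438) with IC. The dendritic cell marker sum had medians of 5105 CPM (4091 to 6156) against 5647 CPM (4453 to 6621) with Ova, and of 5690 CPM (4726 to 7202) against 6382 CPM (5286 to 8270) with IC. Most of the lower macrophage or monocyte sum was Csf1r, whose means with DMSO and iBET were 1032 and 582 CPM with Ova and 1013 and 631 CPM with IC, while Ly6c2 in the same order had 30.4 and 30.9 CPM with Ova and 32.8 and 36.1 CPM with IC. The dendritic cell sum was mostly Cd74 and Itgax, and Ciita had 43.8 CPM with DMSO Ova and 1.36 CPM with iBET Ova, Flt3 had 3.03 and 0.242 CPM, and Zbtb46 had 24.5 and 20.0 CPM. The part of these differences in the tetraspanin values was not tested.

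**Figure D2:**
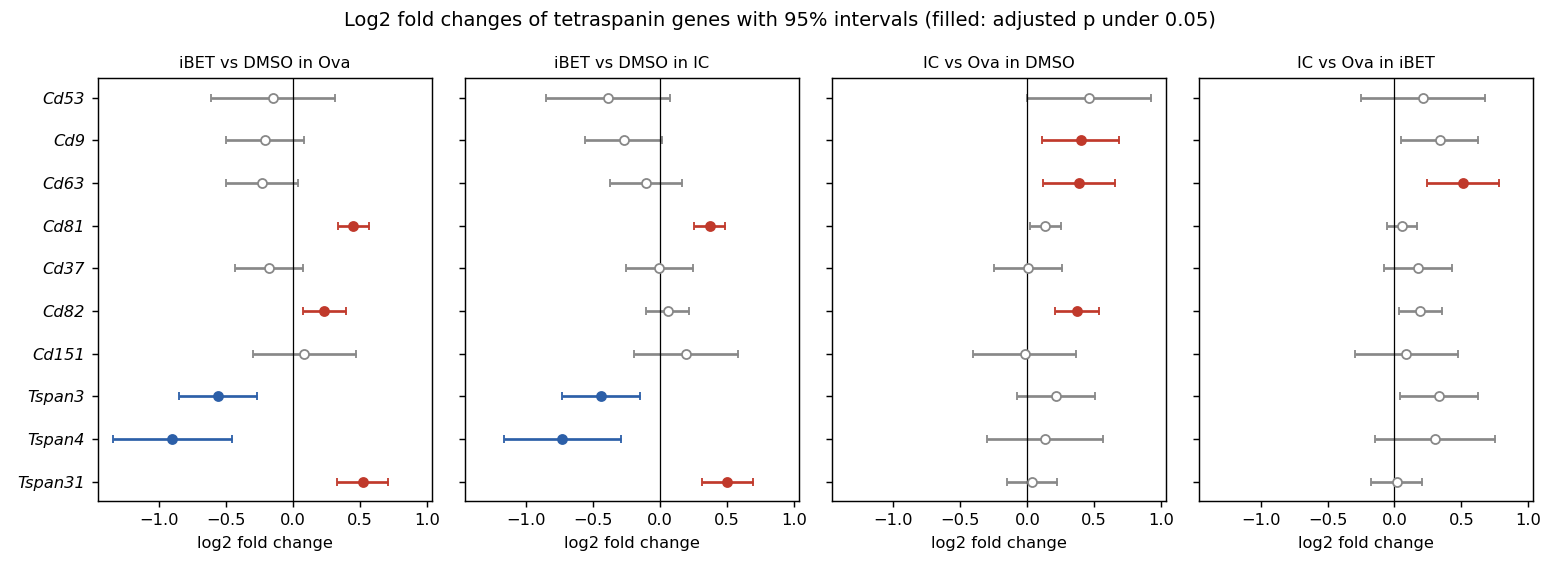
Log2 fold change of each tetraspanin gene in the 4 pairwise comparisons, with 95% intervals. Filled points passed an adjusted p of 0.05 (red higher, blue lower) and open grey points did not, with 5, 4, 3 and 1 filled points from left to right. Points, intervals and calls are from the fit that does not pair the libraries of each mouse. The iBET panels hold points on both sides of 0, while in the panels for IC against Ova 9 and 10 of the 10 points lie above 0.

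The DNA just upstream of the 4 genes that changed with iBET under both stimuli is shown to place them in their surroundings. The windows are the 250 bases before the RefSeq start (build GRCm38.p6), trimmed to the longest stretch outside exons of protein-coding genes, 5′ to 3′ on the strand of the gene. Capitals mark matches, on either strand, to any of 7 motifs searched: the GC box with the letters GGGCGG, the CCAAT box, the TATA box in its form TATAAA, the E-box in its form CACGTG, the AP-1 site as TGANTCA, the cyclic AMP response element as TGACGTCA and the binding core of the factor PU.1 as GAGGAA.
Cd81 (chr7:143052500-143052738, plus strand): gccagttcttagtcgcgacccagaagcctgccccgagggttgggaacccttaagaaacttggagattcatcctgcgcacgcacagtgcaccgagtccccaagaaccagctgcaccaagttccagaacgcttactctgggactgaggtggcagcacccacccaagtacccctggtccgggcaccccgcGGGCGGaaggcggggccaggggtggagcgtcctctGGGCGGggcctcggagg
Tspan31 (chr10:127070265-127070511, minus strand): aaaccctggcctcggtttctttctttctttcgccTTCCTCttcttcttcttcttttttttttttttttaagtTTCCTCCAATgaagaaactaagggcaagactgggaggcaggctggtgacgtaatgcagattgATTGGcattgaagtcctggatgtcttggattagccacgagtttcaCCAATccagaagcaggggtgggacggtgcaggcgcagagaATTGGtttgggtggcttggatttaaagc
Tspan3 (chr9:56161071-56161320, minus strand): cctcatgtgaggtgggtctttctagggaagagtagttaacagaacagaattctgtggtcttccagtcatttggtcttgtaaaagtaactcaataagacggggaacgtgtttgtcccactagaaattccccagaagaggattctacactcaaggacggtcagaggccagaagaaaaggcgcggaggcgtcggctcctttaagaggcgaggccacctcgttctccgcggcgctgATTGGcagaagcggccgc
Tspan4 (chr7:141475133-141475235, plus strand): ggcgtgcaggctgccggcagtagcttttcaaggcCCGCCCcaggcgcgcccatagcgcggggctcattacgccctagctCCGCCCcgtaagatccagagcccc

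The 4 stretches differ in which motifs they hold. In capitals, Cd81 and Tspan4 each have 2 GC boxes, Tspan3 has 1 CCAAT, and Tspan31 has 4 CCAAT and 2 PU.1 cores, of which 1 core overlaps a CCAAT. Of all 32851 RefSeq windows of 250 bases, 32.7% hold a GC box, 33.8% a CCAAT and 23.3% a PU.1 core, and of the 11836 windows of tested genes 57.4%, 35.3% and 22.6% do. The TATA box is in 12.4% of all windows, the E-box in 6%, the AP-1 site in 6.7% and the cyclic AMP response element in 1.5%. Over the full windows of the 10 tetraspanin genes (15 windows, since some genes have several starts), a GC box occurs in 7, a CCAAT in 4, a PU.1 core in 5, an E-box in 2 and the other 3 motifs in 0. The upstream bases of Tspan31 also hold exons of the non-coding gene A730063M14Rik. For Tspan4 the stretch is short because the next gene upstream, Polr2l, begins there.

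Several of these genes share DNA or lie side by side. On GRCm38 (GENCODE M21), Tspan31 lies on chromosome 10 at 127067280 to 127070264, minus strand, and 641 of its exon bases (29.2%) are also exon of Cdk4 on the other strand. Cdk4, a kinase of the G1 phase of the cell cycle, had 88.3 ± 9.94 CPM with DMSO Ova and 78.9 ± 5.22 with iBET Ova (SD, n = 5), a log2 fold change of −0.16 that did not pass the test (adjusted p = 0.0884). With IC, Cdk4 fell by 0.32 on the log2 scale (adjusted p = 0.00184), from 111 ± 8.60 to 89.1 ± 7.52 CPM. Tspan31 was higher with iBET in both settings, the reverse of Cdk4 in 5 of 5 mice each. The library kit keeps strand, but whether the counting used it is not given in the sources used here, so the values of genes that overlap on opposite strands are uncertain.

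Cd151, Polr2l and Tspan4 follow each other on chromosome 7, with 3766 bases between Cd151 (141467392 to 141471473, plus strand) and Tspan4 (141475240 to 141493427, plus strand). Polr2l, which encodes a small subunit of RNA polymerases, lies 107 bases before Tspan4 and rose with iBET, from 15.0 ± 1.67 to 23.9 ± 3.68 CPM with Ova (log2 fold change 0.67, adjusted p = 8.21e-06) and from 18.5 ± 1.29 to 27.1 ± 1.44 CPM with IC (0.55, adjusted p = 7.17e-05). Chid1, on the other strand at the far end of Tspan4 and sharing 292 of its exon bases (13.4%), also rose, by 0.48 (adjusted p = 0.000426) and 0.46 (adjusted p = 0.000682). Tspan4 therefore fell while both genes beside it rose, and Cd151, a partner of laminin-binding integrins, was not called. Cd81 (143052739 to 143067934, plus strand of chromosome 7) lies 33094 bases from Tspan32, another tetraspanin gene, which fell with iBET while Cd81 rose.

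**Figure D3:**
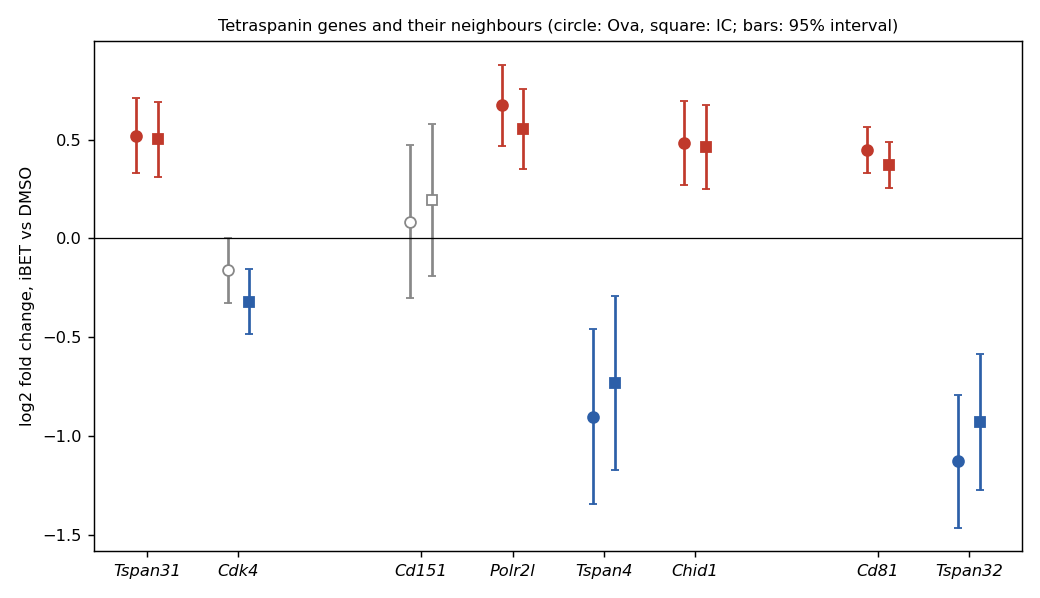
Log2 fold change with iBET of 4 tetraspanin genes and of the genes that overlap them or lie beside them, with 95% intervals, with Ova (circles) and IC (squares). Filled points passed an adjusted p of 0.05 (red higher, blue lower). Tspan4 lies below 0 between Polr2l and Chid1 above 0, and Tspan31 and Cd81 lie above 0 beside Cdk4 and Tspan32 below it.

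The second question was what immune complexes did to the same genes. In DMSO cells IC raised Cd9, Cd63 and Cd82 and lowered none, so 3 of 10 changed, where 20.3% of all genes changed (9.59% higher, 10.7% lower). Log2 fold changes were above 0 for 9 of the 10 genes, with a median of 0.17 against −0.02 for all genes. In iBET cells Cd63 alone passed the test, 1 of 10 against a background of 11.8% (5.19% higher, 6.63% lower), and all 10 values were above 0, with a median of 0.20 against −0.01 for all genes. These counts are from the fit that does not pair the libraries of each mouse. With the mouse as a block, 5 of 10 were called with DMSO (background 38.1%, with 18.3% higher). In iBET cells 7 of 10 were then called (background 28.9%, with 14.2% higher), and all calls in both settings were higher. Both comparisons rest on different libraries, but from the same 5 mice.

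Cd63, which sits in late endosomes and lysosomes and marks exosomes, was called in both. With DMSO Ova, mice A to E had 259, 229.5, 164, 164 and 177 CPM. With DMSO IC they had 249, 273, 246, 275 and 255 CPM. Mouse A was slightly lower with IC and the other 4 mice were higher, so the groups overlapped. The log2 fold change was 0.39 (SE 0.13, adjusted p = 0.0399). In iBET cells Cd63 went from 185, 188, 144, 151 and 176 CPM to 292, 271, 216, 231 and 194 CPM. Here every IC library was above every Ova library, with a log2 fold change of 0.51 (SE 0.13, adjusted p = 0.0138), or 1.43-fold.

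Cd82 gave the smallest p of the 10 with DMSO. Its values of 43.6, 36.4, 46.4, 42.3 and 33.6 CPM with Ova went to 51.5, 54.1, 50.7, 51.4 and 54.6 CPM with IC. The groups did not overlap and the spread narrowed, from a coefficient of variation of 13.1% to 3.31%. The log2 fold change was 0.37 (SE 0.08, adjusted p = 0.00236). In iBET cells it was 0.19 (SE 0.08, adjusted p = 0.115), from 47.6 ± 4.37 to 54.5 ± 2.46 CPM (SD, n = 5).

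Cd9, a surface and vesicle tetraspanin known from the fusion of egg and sperm, stood at 418, 367, 236, 269.7 and 263 CPM with DMSO Ova. With DMSO IC it stood at 435, 419, 376, 435 and 382 CPM. Mice C, D and E were far lower than A and B with Ova and close to them with IC. The log2 fold change was 0.40 (SE 0.14, adjusted p = 0.0472). In iBET cells it was 0.34 (SE 0.14, adjusted p = 0.122), from 314, 271, 238, 249.6 and 270.5 CPM to 422, 371, 299.8, 320.5 and 283 CPM, higher in 5 of 5 mice.

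Cd53, the most abundant member, was higher with IC in every mouse in both settings without passing the test. With DMSO it went from 916, 739.9, 502, 433 and 588 CPM to 1035, 1058, 868, 704 and 709.5 CPM. Over the 20 libraries the mouse held a larger share of its variance (61.4%) than the stimulus did (19.0%). The ranges overlapped, and the log2 fold change was 0.46 (SE 0.22, adjusted p = 0.155). With iBET it went from 751, 755, 504, 381 and 479 CPM to 804, 876, 616, 507 and 529.8 CPM, a log2 fold change of 0.22 (SE 0.22, adjusted p = 0.602). With the mouse as a block the adjusted p was 7.77e-05 with DMSO and 0.0288 with iBET.

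Tspan3 had the opposite sign with IC to that with iBET. With DMSO it was higher in 5 of 5 mice by 0.21 (SE 0.14, adjusted p = 0.309), and with iBET by 0.33 (SE 0.14, adjusted p = 0.134), where the iBET Ova and iBET IC ranges did not overlap. Differences with DMSO and iBET were 0.13 and 0.30 for Tspan4, 0.13 and 0.06 for Cd81, 0.00 (0.0042) and 0.18 for Cd37, −0.02 and 0.09 for Cd151, and 0.04 and 0.02 for Tspan31. Groups that did not overlap were Cd82 with DMSO, 1 of 10 against 12.4% of all genes, and Cd63 and Tspan3 with iBET, 2 of 10 against 10%. For iBET against DMSO they were Cd81, Tspan3, Tspan4 and Tspan31 with Ova, 4 of 10 against 38%, and Cd81 and Tspan31 with IC, 2 of 10 against 42.8%.

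These calls moved with the treatment of the mouse. With the mouse as a block, 5 genes were called with DMSO (background 38.1%, with 18.3% higher), adding Cd53 (adjusted p = 7.77e-05) and Cd81 (0.0454). In iBET cells 7 were called (background 28.9%, with 14.2% higher), namely Cd63 with Cd9 (0.00487), Tspan3 (0.00552), Tspan4 (0.0256), Cd53 (0.0288), Cd82 (0.0421) and Cd37 (0.0496), all higher. Without the block, Cd9 and Cd63 lost their call with DMSO when any 1 of mice B, C, D and E was left out (adjusted p from 0.0604 to 0.221), and Cd63 lost its call with iBET without mouse B (0.0509), C (0.0565) or D (0.0678). With mice A and B alone 0 of the 10 genes were called with DMSO, with Cd9 at 0.11 and Cd63 at 0.08 (background 4%), and with mice C, D and E alone 7 were called (background 27.2%). The difference between these sets of mice was not tested.

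Scaling by library size alone shifted the median log2 fold change of all genes by −0.11 in both comparisons of IC with Ova, to −0.13 with DMSO and −0.12 with iBET. Under it 1 of 10 tetraspanins was called with DMSO (background 25.5%), with Cd9 at 0.29 (adjusted p = 0.0957) and Cd63 at 0.28 (adjusted p = 0.0914). Cd37 and Tspan31 with DMSO, and Cd81, Cd151 and Tspan31 with iBET, then took the opposite sign.

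Whether the effect of iBET differed between Ova and IC was tested directly as an interaction. No tetraspanin gene passed (0 of 10, adjusted p = 0.99993 for each), where 5 genes of 12465 did (0.0401%), and with the mouse as a block 0 of 10 passed against 0.818%. By the unadjusted p under 0.05, 543 genes (4.36%) passed and none of the 10 did. DESeq2 without the block called 24 genes (0.189%) by the adjusted p, and none of the 10 was among them. The largest differences were −0.24 for Cd53 (95% interval −0.90 to 0.41) and −0.18 for Cd82 (−0.41 to 0.05). For Cd81 the interval was −0.24 to 0.09 and for Tspan31 −0.29 to 0.25. The iBET effect on Cd82, called with Ova and not with IC, was thus not shown to differ between the stimuli.

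The share of each gene's variance over the 20 libraries that went with drug, stimulus or mouse sorted the genes into 3 sets. These shares describe the libraries and carry no test. The drug held the largest share for Cd81 (85.6%), Tspan31 (79.3%), Tspan4 (60.1%) and Tspan3 (47.0%). The stimulus held the largest share for Cd63 (54.0%), Cd82 (51.7%) and Cd9 (38.8%). The mouse held the largest share for Cd151 (76.6%), Cd37 (70.1%) and Cd53 (61.4%). Over all genes tested the median shares were 40.2% for the drug, 6.05% for the stimulus and 17.5% for the mouse. Cd9 was the gene whose set depended on scaling, since with library size alone its largest share went to the mouse (32.3%) and not the stimulus (24.8%).

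**Figure D4:**
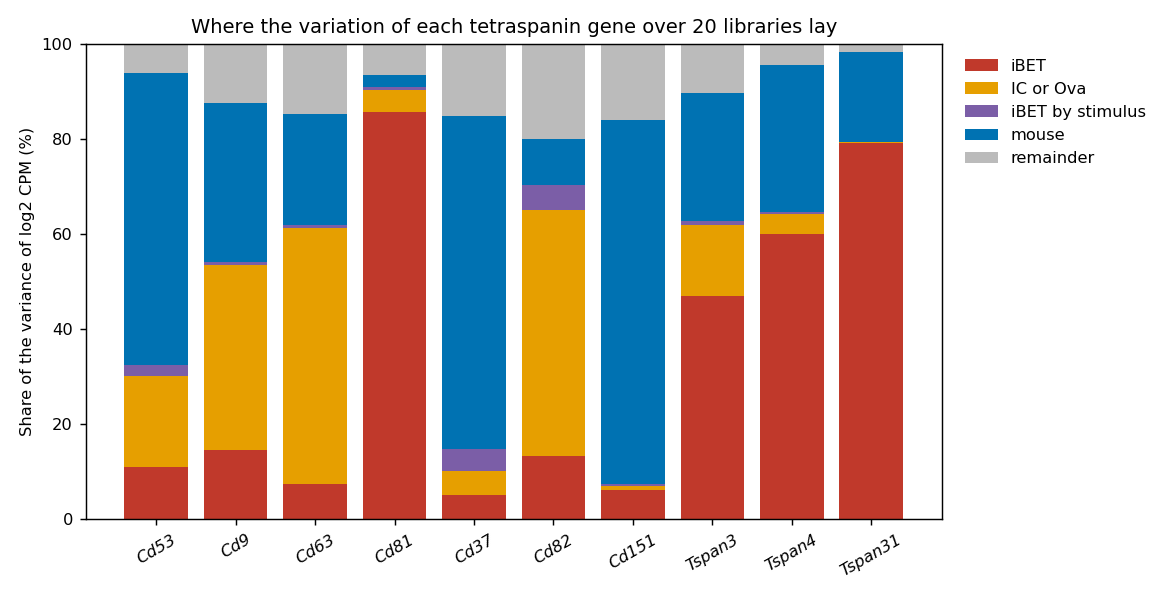
Share of the variance of log2 CPM over 20 libraries, in percent, that went with iBET, with IC or Ova, with their product, with the mouse and with the remainder, for each tetraspanin gene. Red dominates for Cd81, Tspan31, Tspan4 and Tspan3, orange for Cd63, Cd82 and Cd9, and blue for Cd53, Cd37 and Cd151.

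Where mice differed, mice A and B often stood apart from C, D and E. The labels name no batch behind this split, which was chosen with earlier results of these data known. Cd53 spanned 739.9 to 916 CPM in mice A and B and 433 to 588 CPM in the other 3 with DMSO Ova, and the 2 sets did not overlap in any group. Cd151, an anchor of laminin-binding integrins, had 62.5 and 56.6 CPM in mice A and B and 33.4, 34.8 and 35.2 CPM in mice C, D and E with DMSO Ova. Tspan4 and Tspan31 were likewise higher in mice A and B in DMSO cells. Tspan3 went the other way, with 68.5 to 77.6 CPM in mice A and B against 97.9 to 110 CPM in the others. Under iBET its sets overlapped with both stimuli. Cd37, the leukocyte tetraspanin that stabilizes Dectin-1, had 39.1 and 49.2 CPM in mice A and B with DMSO Ova and 38.8, 37.5 and 31.2 CPM in the other 3. Cd81 had the smallest mouse share of the 10 genes (2.40%), with coefficients of variation of 4.08% to 5.73% in the 4 groups.

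Of the 21 further tetraspanin genes in the table, 9 were tested. With iBET 2 of 9 fell and 0 rose with each stimulus, and with IC 1 rose and 1 fell in each setting. Each count is 22.2% of the 9, against 56.6% and 56.1% of all genes with iBET and 20.3% and 11.8% with IC. With the mouse as a block 4 and 3 of the 9 were called with iBET under Ova and IC (background 68.7% and 68%), and 3 and 2 with IC in DMSO and iBET cells (background 38.1% and 28.9%). Tspan32, a blood-cell tetraspanin, stood at 42.0, 41.1, 36.0, 35.0 and 41.4 CPM with DMSO Ova. It stood at 22.9, 19.0, 16.3, 13.8 and 17.4 CPM with iBET Ova. The groups did not overlap, and the log2 fold change was −1.13 (adjusted p = 6.47e-06). With IC it fell by 0.93 with iBET (adjusted p = 7.97e-05), and with IC it fell by 0.96 in DMSO cells (adjusted p = 0.000364) and fell by 0.76 in iBET cells (adjusted p = 0.0054). Drug and complex thus each lowered Tspan32, while its neighbour Cd81 rose with the drug.

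Tspan5, one of the TspanC8 tetraspanins that escort the protease Adam10 to the surface, was the gene that rose with IC. It had 113, 93.6, 78.8, 84.6 and 92.7 CPM with DMSO Ova and 168, 155, 139.5, 150.4 and 149 CPM with DMSO IC. The groups did not overlap, with a log2 fold change of 0.72 (adjusted p = 2.16e-05), and the value in iBET cells was 0.65 (adjusted p = 0.000107). The other gene that fell with iBET was Tspan33, also a TspanC8 gene, which is named because it completes the count although its level is low. It fell from 7.05 ± 3.89 to 1.87 ± 1.04 CPM with Ova (adjusted p = 0.00192) and from 7.74 ± 3.35 to 2.20 ± 1.17 CPM with IC (adjusted p = 0.00232). Adam10 itself was not called, at 0.18 with iBET under both stimuli (adjusted p = 0.314 and 0.321) and −0.10 and −0.11 with IC.

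Of 24 genes whose proteins tetraspanins are known to bind or traffic, 22 were tested. With iBET 3 rose and 5 fell with Ova and again with IC, and with IC 3 rose in DMSO cells and 2 in iBET cells, with 0 lower. As shares these were 36.4% and 36.4% with iBET against 56.6% and 56.1% of all genes, and 13.6% and 9.09% with IC against 20.3% and 11.8%. With the mouse as a block 14 and 13 of the 22 were called with iBET (background 68.7% and 68%) and 10 and 11 with IC (background 38.1% and 28.9%). Clec7a, which encodes Dectin-1, had 1016 ± 276 CPM with DMSO Ova and 306 ± 46.4 with iBET Ova (SD, n = 5). Its log2 fold change was −1.73 with Ova (adjusted p = 8.34e-09) and −1.51 with IC (adjusted p = 5.01e-08), and IC raised it in iBET cells by 0.49 (adjusted p = 0.0327). Its tetraspanin Cd37 was not called in any of the 4 comparisons without the mouse as a block. With the block, Cd37 was lower with iBET under Ova (adjusted p = 0.0199) and higher with IC in iBET cells (0.0496). Cd82, which also associates with Dectin-1, was called higher without the block with iBET under Ova (adjusted p = 0.0154) and with IC in DMSO cells (0.00236).

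Ptprc, the phosphatase CD45, fell by 0.90 on the log2 scale with Ova (adjusted p = 1.1e-07) and fell by 0.96 with IC (adjusted p = 5.08e-08), from 531 ± 53.9 to 284 ± 33.8 CPM with Ova. Itga4, the integrin chain that pairs with several tetraspanins, fell by 0.82 with Ova (adjusted p = 1e-04) and fell by 0.69 with IC (adjusted p = 0.000556). Clec7a, Ptprc and Itga4 thus fell with both stimuli. In the fit with the 4 groups as the only factor, neither Cd53 nor Cd37 was called with iBET. With the mouse as a block, Cd53 was lower with iBET under IC (adjusted p = 0.000115, lower in 5 of 5 mice) and not called under Ova (0.0856). Cd37 was then lower under Ova (adjusted p = 0.0199) and not called under IC (0.92).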

How the data were processed

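RNA-seq libraries of BMDC from 5 mice in each of 4 groups were analysed. Per the labels and methods, total RNA libraries (SMARTer pico kit, stranded) were trimmed with Trim Galore, aligned to mm10 with HISAT2 and counted with featureCounts; the annotation and strand setting are not given in the sources used here. The authors deposited raw counts per gene, and a table of signal values that are the counts divided by a size factor per library. Every library had 1 such factor (checked, relative spread at most 9.9e-15), which matched the size factor of DESeq2 (relative difference at most 2.2e-16).

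Genes were kept with filterByExpr and their raw counts tested in edgeR 4.0.16 (quasi-likelihood, R 4.3.3), with TMM scaling, the 4 groups as the only factor and Benjamini-Hochberg adjustment over 12465 genes, at an adjusted p of 0.05. CPM values are TMM-normalized, and log2 CPM for variance shares used a prior count of 2. Intervals are 95% intervals of the fit, and counts of mice compare log2 CPM within a mouse. Replicates differed by more than counting error (chi-square per degree of freedom at least 12.5 in 40 pairs), so errors are SDs between mice. The mouse named in the labels pairs the libraries: deviations from the group means correlated at 0.307 to 0.675 in 30 pairs of libraries of the same mouse.

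Alternatives were the mouse as a block, DESeq2 1.42.0 without and with it, DESeq2 size factors, library size only, 3 surrogate variables (sva 3.50.0), no filter, only the groups compared, limma 3.58.1 on log2 of the deposited signal plus 1, mice A and B or C, D and E only, and each mouse left out. Levels per kb used merged exon lengths of GENCODE M21, and promoter sequence came from RefSeq (GRCm38.p6, all 10 genes matched). The tetraspanin genes, the other lists and the split of mice were chosen with earlier results of these data known. All 10 tetraspanins are named. Single-gene values of some genes that the naming rule covers are not reported here. Up to 4 genes of each further list are named, those called with the largest change and at least 10 CPM on average, plus Adam10 and the genes that share exons with a tetraspanin gene or lie between or beside 2 of them.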

Additional observations from a re-analysis of the deposited data

Results flagged for a closer look

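Among 40 checks (10 tetraspanin genes in 4 groups of 5), 1 library stood far from the others of its group. Tspan4 in iBET Ova cells of mouse A was at 12.2 CPM, where the next highest library was at 8.56 CPM, and the gap was 0.774 of the group's range against a critical value of 0.71. Chance flags about 1 in 20 such groups. Without mouse A, Tspan4 stayed lower with iBET at an adjusted p under 0.05.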

How the results depend on the processing

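The iBET calls of Cd81, Tspan31 and Tspan4 held under all 16 alternatives with each stimulus. With the mouse as a replicate block the number of tetraspanins called, with the share of all genes called in the same setting in brackets, was 8 (68.7%) with Ova and 6 (68%) with IC for iBET, 5 (38.1%) in DMSO and 7 (28.9%) in iBET cells for IC, and 0 for the interaction. DESeq2 with the replicate block gave 6 (33.1%) and 7 (27.2%) for IC. Surrogate variables gave 9 (68.5%) and 7 (66.6%) for iBET and 5 (21.6%) for IC in iBET cells. For IC in DMSO cells library size only (25.5%), no filter (11.2%) and only the groups compared (14.6%) each gave 1, mice A and B only gave 0 (4%) and mice C, D and E only gave 7 (27.2%). For IC in iBET cells only the groups compared (10.3%) and mice C, D and E only (9.48%) each gave 2. Mice C, D and E only gave 7 (57.4%) for iBET with IC. Leaving out 1 mouse gave 5 calls in every case for iBET in Ova, 3 to 5 for iBET in IC, 1 to 3 for IC in DMSO cells, 0 to 1 for IC in iBET cells and 0 for the interaction.

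Direction changed only for values that were not called in the first analysis. With mice C, D and E only these were Cd9 for iBET in Ova (0.029), Cd37 for iBET in IC (0.029), Cd37 and Cd151 for IC in DMSO (−0.00902 and 0.23, the latter with an adjusted p of 0.0473), Cd151 for IC in iBET (−0.00431), and in the interaction Cd63 (−0.20), Cd151 (−0.24) and Tspan4 (−0.071). With mice A and B only they were Cd151 for iBET in Ova (−0.14), Cd63 for iBET in IC (0.13), and in the interaction Cd9 (0.34) and Cd81 (0.0705). With library size only they were Cd37 (−0.10) and Tspan31 (−0.073) for IC in DMSO, and Cd81 (−0.051), Cd151 (−0.018) and Tspan31 (−0.0900) for IC in iBET. Cd151 for IC in DMSO was 0.017 with the block, 0.017 in DESeq2 with the block and 0.025 in limma, and Cd151 for IC in iBET was −0.023 with surrogate variables. Cd37 for iBET in IC was 0.012 without a filter and 0.000184 in limma. Leaving out 1 mouse gave −0.021 to 0.016 for Cd37 with iBET in IC, −0.047 to 0.068 for Cd37 and −0.077 to 0.069 for Cd151 with IC in DMSO, −0.00797 to 0.035 for Tspan31 with IC in iBET, and in the interaction −0.20 to 0.029 for Cd9, −0.046 to 0.24 for Cd63, −0.041 to 0.22 for Cd151 and −0.046 to 0.013 for Tspan31. The cause of these changes was not tested. Library size only also moved the split of calls over all genes for IC, to 582 higher and 2593 lower in DMSO cells and 313 and 2030 in iBET cells, from 1196 and 1335 and from 647 and 827, and for iBET to 3014 and 4005 (Ova) from 3449 and 3608. The lowest of these genes, Tspan4, had 143 to 616 counts per library.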
